A study of Homo sapiens with 14 samples.

Results

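The 9 genes described here, NFS1, ISCU, LYRM4, HSCB, GLRX5, NUBP1, CIAO1, MMS19 and FAM96B, encode proteins that build iron-sulfur clusters or pass them on. Their guides were taken by gene symbol from the guide names, which gave 45 guides for 9 of the 18905 gene symbols in the files. The counts come from a pooled CRISPR interference screen, in which a catalytically dead Cas9 fused to the KRAB repressor lowers transcription at the start of the gene that a guide RNA matches. The screen asked how repression of each gene changes the amount of delta opioid receptor (DOR) left after agonist exposure, read through the peroxidase APEX2 fused to the receptor. The cells were HEK293 FLP-In, of human embryonic kidney origin with a recombination site for transgenes. They carried the SSF-DOR-APEX2 fusion and dCas9-KRAB-BFP, and clonal populations of the repressor cells had been grown out. The guide library hCRISPRi-v2-top5 was delivered as 7 sublibraries, H1 to H7.

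All libraries shared the same treatment. Cells were transduced at a multiplicity of about 0.2, selected for 3 days with puromycin at 0.75 µg/ml and assayed on day 8. They received 10 µM of the opioid peptide DADLE for 90 minutes, then 100 µM Amplex UltraRed, a dye precursor that becomes fluorescent when a peroxidase oxidises it, and 50 µM hydrogen peroxide for 1 minute. The brightest quartile (top) and the dimmest quartile (bottom) of each sublibrary were sorted, and guides were amplified from their genomic DNA. This gave 14 libraries in 14 groups, a top and a bottom library for each of H1 to H7. With 1 library per group, no difference below has a replicate check and no p-value is given. No library came from cells without DADLE, so altered loss of receptor after agonist and any other change in the APEX2 signal cannot be told apart.

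NFS1 was read in H1, MMS19 in H2, HSCB in H3, CIAO1 in H5 and FAM96B in H7, each with 5 guides. ISCU, LYRM4, GLRX5 and NUBP1 were read in H4. The H4 top table holds 35 complete guides with 70718 counts in all and ends within a guide's name, so those 4 genes have bottom counts here and no top-to-bottom comparison. Among the 12 compared libraries the deepest was H2 top with 34636612 counts and the shallowest H6 bottom with 18054418. The names of the deposited tables tag every top library as reverse and every bottom library as forward, so quartile and that tag cannot be told apart.

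Iron-sulfur clusters are inorganic cofactors of enzymes in respiration, DNA replication and repair, translation and heme synthesis. In mitochondria the cysteine desulfurase NFS1, held by LYRM4 and an acyl carrier protein, provides sulfur, and a cluster is built on the scaffold ISCU. The co-chaperone HSCB helps release it from ISCU, and the glutaredoxin GLRX5 receives it. In the cytosol NUBP1 belongs to the scaffold on which clusters for cytosolic and nuclear proteins are put together, and CIAO1, MMS19 and FAM96B form the complex that hands them to their target proteins. APEX2 binds heme, and the last enzyme of heme synthesis, ferrochelatase (FECH), itself holds an iron-sulfur cluster in humans.

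CRISPR interference acts at promoters, so the stretches before the RefSeq starts of the genes with the highest ratios are shown. They are the 250 bases upstream of the start of NFS1 (GRCh38.p14, chr20:35699353-35699602, minus strand) and of the starts of MMS19 (chr10:97498795-97499044 and chr10:97498423-97498672, minus strand). Each reads 5′ to 3′ in the direction of the gene, with the 25 bases next to the start in capitals.
NFS1: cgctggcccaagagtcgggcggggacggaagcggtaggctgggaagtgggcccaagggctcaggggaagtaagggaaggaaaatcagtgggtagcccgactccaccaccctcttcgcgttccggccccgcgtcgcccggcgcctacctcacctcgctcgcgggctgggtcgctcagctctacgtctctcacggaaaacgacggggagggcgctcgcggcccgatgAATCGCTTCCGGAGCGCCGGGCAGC
MMS19 start 1: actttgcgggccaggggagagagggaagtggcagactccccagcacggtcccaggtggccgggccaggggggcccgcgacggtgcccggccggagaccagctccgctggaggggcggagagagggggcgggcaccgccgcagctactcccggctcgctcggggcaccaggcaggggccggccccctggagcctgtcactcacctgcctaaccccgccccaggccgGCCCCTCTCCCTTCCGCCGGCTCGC
MMS19 start 2: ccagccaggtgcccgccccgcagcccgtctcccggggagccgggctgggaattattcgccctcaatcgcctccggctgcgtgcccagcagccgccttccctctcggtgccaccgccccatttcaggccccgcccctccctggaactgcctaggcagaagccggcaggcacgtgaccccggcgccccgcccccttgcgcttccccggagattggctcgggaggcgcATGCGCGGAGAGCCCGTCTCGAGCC
The motif NGG, the letters beside which this Cas9 binds, was counted on both strands with overlaps allowed. It occurred 62 times in the NFS1 window and 87 and 74 times in the MMS19 windows, against a median of 48 over 35116 RefSeq windows of the same length, of which 99.99% hold it at least once. G and C made up 69.2% of the NFS1 window and 76.8% and 73.6% of the MMS19 windows, against a median of 58.0%. Guide positions in the names carry no build in the sources used here and were not placed in these windows.

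Cells with guides against NFS1 were more frequent in the bright than in the dim quartile, and the other 4 compared genes stayed under the fold used here. For each guide, log2(top/bottom) was computed from counts per library total and centred on the non-targeting guides of the sublibrary, which match no human gene, and the guides of a gene were averaged. A positive value means that cells with the guide made up more of the top than of the bottom library. A gene was called at a mean of 0.5 or more on this log2 scale, which is 1.41-fold, or at -0.5 or less. By that rule 1 of the 5 compared genes was higher in top, against 1.89% of all 18116 gene starts tested, and 0 of 5 were higher in bottom, against 1.00%. The median of the 5 genes was 0.02, and that of all gene starts was 0.01. The order ran from NFS1 at 1.10 to MMS19 at 0.33, FAM96B at 0.02, HSCB at -0.04 and CIAO1 at -0.06. FAM96B, HSCB and CIAO1 differed from each other by less than the SD over guides of any of them, and the difference between NFS1 and MMS19 was under the SD over the guides of NFS1.

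**Figure D1:**
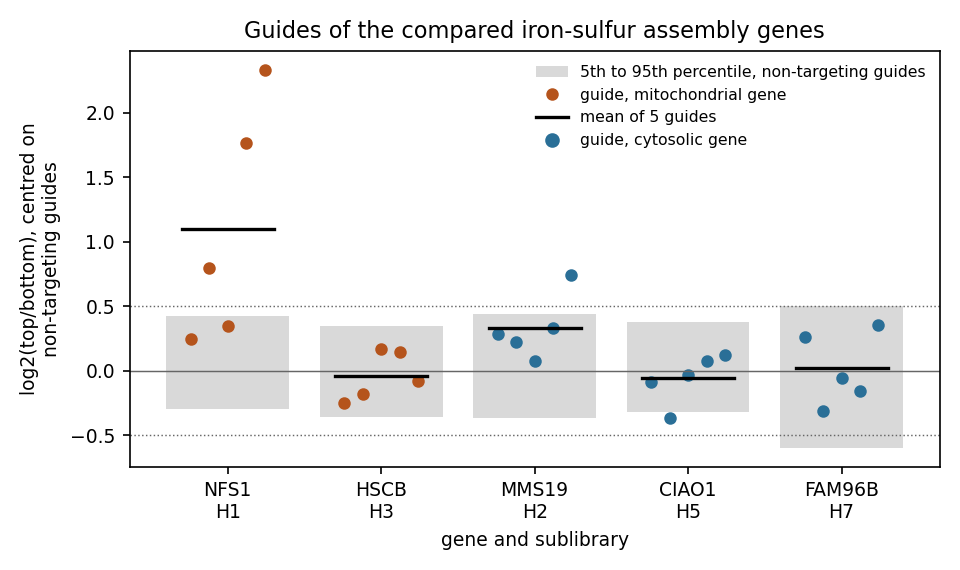
Centred log2(top/bottom) of each guide (points, brown for mitochondrial and blue for cytosolic genes, left to right by position) for the 5 compared genes, with the mean of 5 guides as a bar and the 5th to 95th percentile of the non-targeting guides of that sublibrary in grey. All 5 NFS1 guides lie above 0, up to 2.34, and dotted lines mark 0.5 and -0.5.

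NFS1, the desulfurase that supplies the sulfur, had guides within 141 bases of each other. The guide at position 34287226 on the plus strand had 1683 counts in H1 top, against 267 in H1 bottom. Its log2 ratio was 2.34, with a 95% Clopper-Pearson interval of 2.15 to 2.53. Such intervals cover counting error only: the PCR products carried no molecular identifiers, so reads do not stand for separate molecules. The guide 6 bases away, at 34287220, had 1865 counts in top and 439 in bottom, a ratio of 1.77 (1.62 to 1.92). These 2 guides lay above every non-targeting guide of H1.

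The NFS1 guide at 34287137 had 2182 counts in top and 1009 in bottom, a log2 ratio of 0.80 (0.69 to 0.91). It too lay above the 95th percentile of the H1 non-targeting guides, which was 0.43. The guide at 34287196 had 2705 counts in top and 1705 in bottom (0.35), and that at 34287085 had 3623 in top and 2446 in bottom (0.25). Both were inside the range of the non-targeting guides. The mean over all 5 guides was 1.10 ± 0.92 (SD over guides, n = 5), a 2.14-fold difference, and 5 of 5 guides were above 0. NFS1 ranked 10th from the top of 2555 gene starts in H1.

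The size of the NFS1 value rested on the strongest guides. Without the guide farthest from 0 the mean was 0.79, the median over guides was 0.80, and the ratio of the counts summed over guides was 0.72 (0.68 to 0.77). All of these stayed past 0.5. Much of the spread was in the dim cells: the highest count of a guide was 2.15 times the lowest in H1 top and 9.16 times in H1 bottom.

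**Figure D2:**
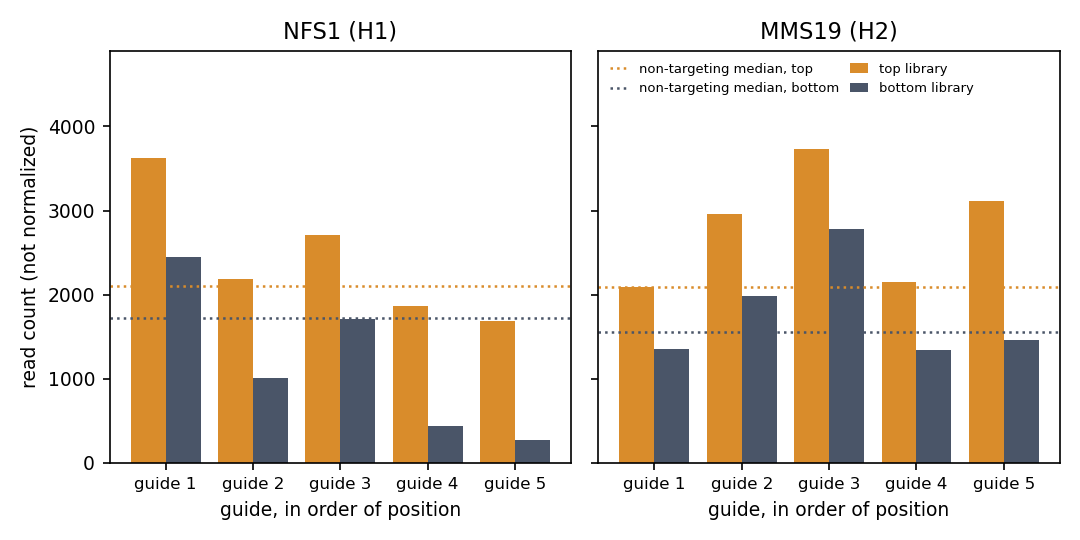
Read counts of each guide in the top (orange) and bottom (slate) library for NFS1 in H1 and MMS19 in H2, in order of position, with the median of the non-targeting guides dotted. Counts are not normalized: NFS1 guides 4 and 5 reached 439 and 267 counts in the bottom library, against a non-targeting median of 1719 there.

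Guide abundance is the log2 of a count over the non-targeting median of the same library. In a single quartile it depends both on how many cells carried the guide and on which quartile they went to. In H1 top the NFS1 guides ranged from -0.32 to 0.79 with a median of 0.06. In H1 bottom they ranged from -2.68 to 0.51 with a median of -0.77, which was at the 11.5th percentile of the gene starts of H1. Taken over both libraries, the guides with higher ratios were the less abundant ones: from the highest ratio to the lowest, abundance was -0.97, -0.72, -0.25, 0.21 and 0.67. No library holds the cells between the top and bottom quartiles, so the count over both libraries also depends on the sort.

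Abundance and ratio are made from the same counts. Over all of H1, the less abundant guides spread more widely around a centre near 0. The 2077 guides with an abundance above -1 and up to -0.5 had a median ratio of 0.00, with 5th and 95th percentiles of -0.45 and 0.47. The strongest NFS1 guides, at 2.34 and 1.77, were in that range of abundance. The part of guide loss in the NFS1 ratio was not tested, and counts of the guide pool before growth were not analysed here.

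**Figure D3:**
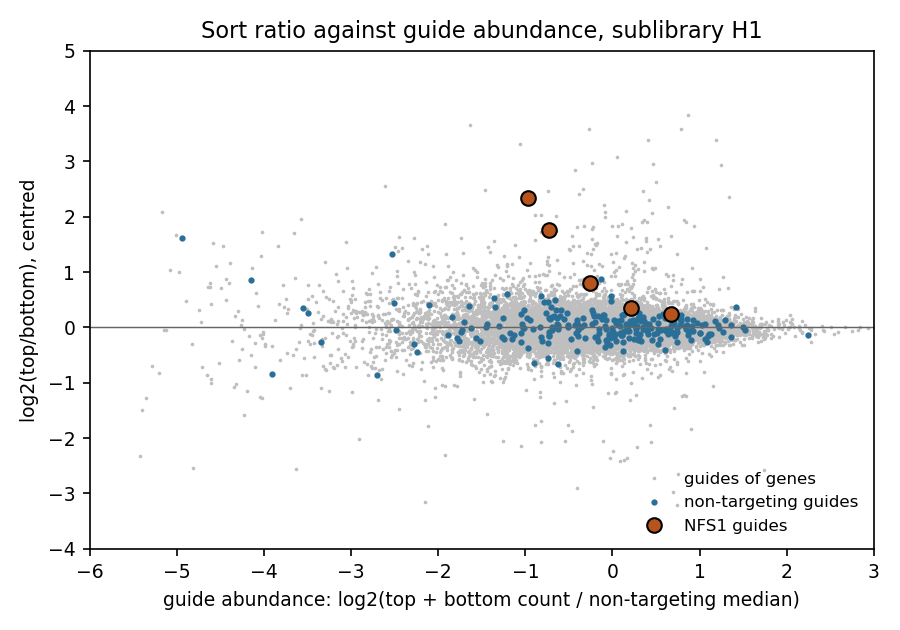
Centred log2(top/bottom) against abundance over both libraries (log2 relative to the non-targeting median) for the guides of H1, with the NFS1 guides marked; 11 of 13000 guides lie outside the axes. The NFS1 guides at -0.97 and -0.72 on the horizontal axis sit at 2.34 and 1.77, and the most abundant one, at 0.67, sits at 0.25.

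HSCB, the co-chaperone of the scaffold, was the other mitochondrial gene compared. In position order its guides had 883, 1661, 1877, 1461 and 1684 counts in H3 top, against 916, 1637, 1459, 1152 and 1554 in H3 bottom. The log2 ratios were -0.25, -0.17, 0.17, 0.15 and -0.08, all inside the 5th to 95th percentile of the H3 non-targeting guides (-0.35 to 0.35). The mean was -0.04 ± 0.19 (SD over guides, n = 5), with 2 guides above 0 and 3 below. H3 had the narrowest non-targeting spread of the compared sublibraries, an SD of 0.215.

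A guide of HSCB, at 29138256 on the plus strand, is also listed for the checkpoint kinase gene CHEK2 in H1. There it had 672 counts in top and 660 in bottom, a log2 ratio of -0.29, which was again inside the non-targeting range. The ratio of the same position and strand was thus -0.08 in the H3 sort and -0.29 in the H1 sort.

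MMS19, the large subunit of the complex that delivers clusters, came next to NFS1 in order. Its guides had 2092, 2953, 3732, 2145 and 3115 counts in H2 top, against 1353, 1985, 2782, 1342 and 1462 in H2 bottom. The log2 ratios were 0.28, 0.23, 0.08, 0.33 and 0.75, so 5 of 5 lay above 0 and 1 lay above the non-targeting 95th percentile of 0.44. That guide, at 99258574, lay above every non-targeting guide of H2. It stood 407 bases from the next one and had an interval of 0.66 to 0.84. The mean was 0.33 ± 0.25 (SD over guides, n = 5), a 1.26-fold difference under the fold rule, and 0.23 without that guide. Its rank was 158 from the top of 3209 gene starts in H2. The median abundance of MMS19 guides was 0.50 in H2 top and -0.08 in H2 bottom.

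CIAO1, the propeller protein of the same complex, had 1699, 738, 1308, 1218 and 1350 counts in H5 top, against 2221, 1177, 1649, 1426 and 1533 in H5 bottom. The H5 bottom library was the deeper of the pair. After scaling, the log2 ratios were -0.08, -0.37, -0.03, 0.08 and 0.12, with the second below the non-targeting 5th percentile of -0.32. Their mean was -0.06 ± 0.19 (SD over guides, n = 5).

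FAM96B, listed in RefSeq as CIAO2B, is the remaining protein of the complex. Its guides had 825, 311, 3433, 356 and 2566 counts in H7 top, against 670, 375, 3471, 387 and 1947 in H7 bottom. The log2 ratios were 0.26, -0.31, -0.05, -0.16 and 0.36, and 0 of 5 left the non-targeting range of H7 (-0.60 to 0.50). The mean was 0.02 ± 0.28 (SD over guides, n = 5). Its counts spread 11.0-fold in top and 9.26-fold in bottom, and guides scarce in one library were scarce in the other. MMS19, CIAO1 and FAM96B thus had means of 0.33, -0.06 and 0.02, each from a separate sort.

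For the 4 genes of H4 the deposited values show abundance in the dim quartile. LYRM4, the partner that stabilises NFS1, had 1762, 799, 1653, 197 and 988 counts in H4 bottom in position order. The guide with 197 counts was at an abundance of -2.78, and the median of the 5 was -0.46. ISCU, the scaffold, had 279, 1045, 1794, 796 and 1507 counts, with the lowest guide at -2.28 and a median of -0.38. NUBP1 of the cytosolic scaffold had 1248, 1606, 1689, 478 and 1090 counts, with the lowest guide at -1.51 and a median of -0.13.

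GLRX5, which receives clusters from the scaffold, had 1132, 1420, 1911, 1513 and 1672 counts in H4 bottom, the narrowest of the 4 ranges, with a median abundance of 0.15. The 5th to 95th percentile of the 250 H4 non-targeting guides ran from -1.48 to 0.86. LYRM4, ISCU and NUBP1 each had 1 guide of 5 under it and GLRX5 had 0. Among all 12045 H4 guides with a target, 5.68% were under it. Median abundance was at the 14.4th percentile of the 2410 H4 gene starts for LYRM4, the 20.0th for ISCU, the 41.3rd for NUBP1 and the 72.1st for GLRX5. Loss of cells during growth, a low share in the starting pool and movement to the top quartile cannot be told apart from a bottom library.

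**Figure D4:**
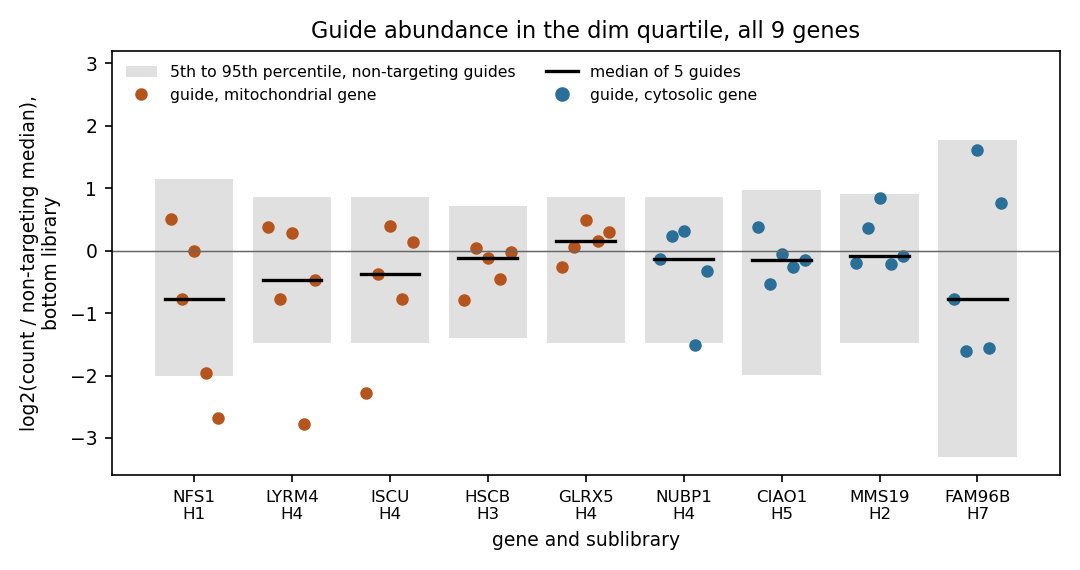
Abundance of each guide in the bottom library (log2 of the count over the non-targeting median) for all 9 genes, brown for mitochondrial and blue for cytosolic genes, with the median of 5 guides as a bar and the 5th to 95th percentile of the non-targeting guides in grey. NFS1, LYRM4, ISCU and NUBP1 each have 1 guide under the grey band, at -2.68, -2.78, -2.28 and -1.51.

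Repression at a promoter shared by neighbouring genes can reach both, so targets with guides within 1000 bases were looked up. NFS1 guides came within 93 bases of guides for ROMO1, a small mitochondrial membrane protein. ROMO1 is in H4, where its guides had 643 to 2172 counts in bottom and a median abundance of 0.33, so its ratio was not compared. The neighbour of MMS19, UBTD1, was 124 bases away and had a mean of 0.08 ± 0.11 (SD over guides, n = 5) in H3. TMEM127, 361 bases from CIAO1, had 0.03 ± 0.17 in H6, and CHEK2 beside HSCB had 0.03 ± 0.25 in H1. FARS2, 285 bases from LYRM4 and encoding the mitochondrial phenylalanine tRNA synthetase, had -0.08 ± 0.52 in H1. CES2, 99 bases from FAM96B, had 751 to 1687 counts in H4 bottom. None of the 4 compared neighbours passed the fold, and ISCU, GLRX5 and NUBP1 had no neighbour within that distance.

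Other genes of the pathway were read the same way, at their primary start. Over all 18116 gene starts, 1.89% were higher in top and 1.00% were higher in bottom, the shares to set beside each count below. These shares take in every start of a gene, while the lists hold primary starts only. Of 8 compared genes that also act in mitochondrial cluster assembly, 1 was higher in top and 0 were higher in bottom, with a median of 0.01. That gene was NDUFAB1, the acyl carrier protein that binds the NFS1 complex through LYRM4, at 0.55 ± 0.37 (SD over guides, n = 5), with 5 of 5 guides above 0. Without its farthest guide it was at 0.42, under the fold. Its guides had 1518 to 3565 counts in H1 top, against 1055 to 1774 in H1 bottom. The chaperone HSPA9, which works with HSCB, was at 0.14, the ferredoxin FDX1 at 0.03, and its reductase FDXR and the nucleotide exchange factor GRPEL1 at 0.01. The late-acting NFU1 was at -0.05.

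Among 7 compared genes of the cytosolic route, the median was 0.08. Higher in bottom were 0, against 1.00% of all gene starts, and 1 was higher in top, against 1.89%. It was NARFL, the iron-sulfur protein between the scaffold and the targeting complex, at 0.82 ± 0.60 (SD over guides, n = 5) with 5 of 5 guides above 0. Its guides had 1381 to 3562 counts in H5 top, against 776 to 3184 in H5 bottom. The electron donors NDOR1 and CIAPIN1 were at 0.26 and 0.16, GLRX3 at 0.08 and FAM96A, the relative of FAM96B, at -0.07. BOLA2 and BOLA2B share their guides and were both at 0.03.

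Proteins that receive clusters in the nucleus and cytosol had a median of 0.06 over 21 compared genes. Of these, 0 were higher in bottom, against 1.00% of all gene starts. Higher in top were 5 of 21, against 1.89% of all gene starts. They were PRIM2 of the primase at 1.45 ± 0.64, POLD1 of DNA polymerase delta at 1.42 ± 0.83 and POLA1 of DNA polymerase alpha at 1.33 ± 0.72. ABCE1, which recycles ribosomes, was at 0.83 ± 0.57 and the nuclease DNA2 at 0.67 ± 0.59 (SD over guides, n = 5 each). ABCE1 alone of these missed the fold in an alternative, at 0.47. Median guide abundance over both libraries was -0.28 for PRIM2, -0.21 for POLD1, -0.06 for POLA1, -1.56 for ABCE1 and -0.04 for DNA2, and the part of guide loss in these ratios was not tested. The other 16 lay between the fold limits, among them the helicase ERCC2 at 0.11 and DNA polymerase epsilon (POLE) at 0.22. ABCE1 shares a guide position with ANAPC10, which had -0.05 ± 0.31.

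Of 12 compared mitochondrial proteins that hold clusters, 0 were higher in top, against 1.89% of all gene starts. Higher in bottom was 1, against 1.00%, and the median was 0.09. The gene higher in bottom was FECH at -0.86 ± 1.19 (SD over guides, n = 5), with 3 of 5 guides below 0, and -0.49 without the farthest of them. Its guides had 839 to 7132 counts in H1 top, against 945 to 5283 in H1 bottom. The respiratory subunits SDHB and NDUFS1 were at 0.35 and 0.18, and the lipoate synthase LIAS was at 0.25. SDHB had 4 guides with an SD of 0.61, 3 of them above 0, and was at 0.07 without the farthest.

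Of 6 compared genes of heme synthesis, FECH included, 3 were higher in bottom, against 1.00% of all gene starts. Higher in top was 1, against 1.89%, and the list median was -0.52. ALAD, an early enzyme of the route, was at -0.96 ± 0.29 with 5 of 5 guides below 0, and the mitochondrial transporter ABCB10 was at 0.60 ± 0.98 with 3 of 5 above 0 (SD over guides, n = 5 each). Without its farthest guide ABCB10 was at 0.34, under the fold. UROD and ALAS1 were at -0.18 and -0.08. For iron supply, 0 of 11 compared genes passed the fold in either direction, against 1.89% and 1.00% of all gene starts. The median was 0.03, from PCBP1, an iron chaperone, at -0.34 to SLC25A28, a mitochondrial iron importer, at 0.44. The transferrin receptor TFRC was at 0.21 and the iron regulator IREB2 at 0.24.

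**Figure D5:**
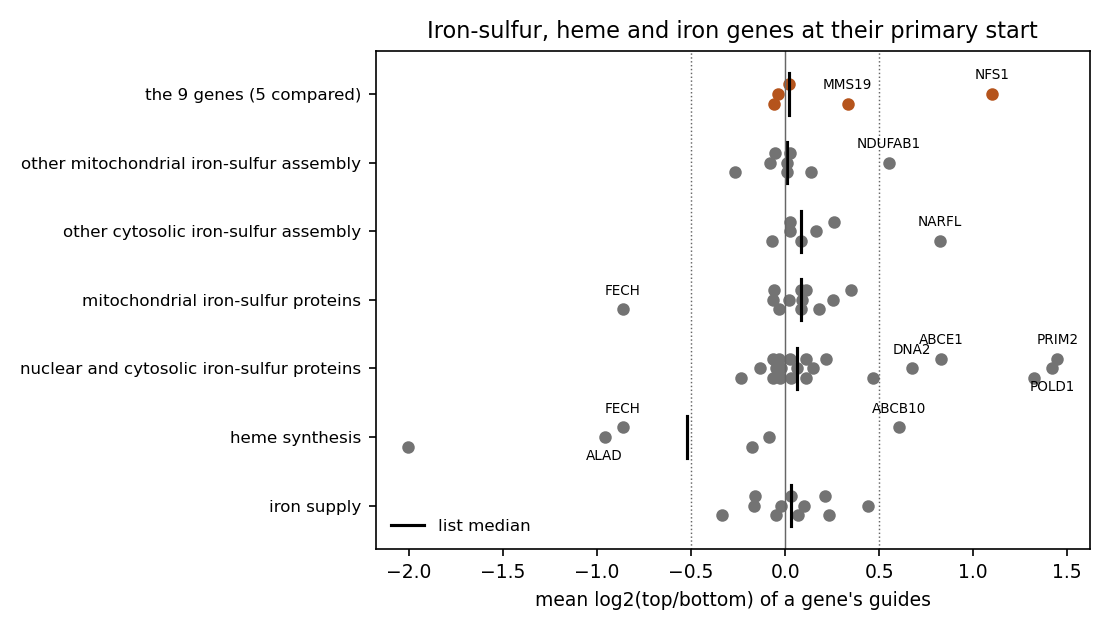
Mean centred log2(top/bottom) of each compared gene (points) at its primary start, by list, with the list median as a vertical bar and dotted lines at 0.5 and -0.5. NFS1, NDUFAB1, NARFL, PRIM2, POLD1 and POLA1 lie to the right, and ALAD and FECH lie to the left.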

How the data were processed

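Guide counts of a pooled CRISPR interference screen were analysed, with libraries grouped by their titles into sublibrary and quartile. The values are whole-number counts per guide, deposited by the authors without normalization, 1 table per library. The submitters' processing notes name Bowtie; the sources used here do not give its version, further counting options or the build of the guide positions. Total counts ran from 18054418 to 34636612 over the 12 compared libraries.

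A pseudocount of 1 was added, counts were divided by library totals, and the median log2(top/bottom) of the 241 to 308 non-targeting guides of the sublibrary was subtracted. Guides needed at least 50 counts in either library (91088 of 91463; 25 of 25 guides of the genes described) and gene starts at least 3 guides. With 1 library per group edgeR's test has no residual degrees of freedom, so a fold rule of 0.5 replaced it. edgeR 4.0.16 and DESeq2 1.42.0 (R 4.3.3) gave alternative scalings only; other steps used Python 3.11.15. Alternatives covered pseudocount, count minimum, scaling, centring, the summary over guides and the fold. The steps were tested on simulated data.

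Genes and lists were chosen with earlier results of these data known. Named were all 9 genes, up to 4 genes farthest from 0 in each list or a whole small list, and neighbours by position; genes named beyond these were chosen after their values were seen, and not every gene that the rule takes is reported here. Symbols were matched to RefSeq GRCh38.p14 (18814 of 18905, 9 of 9 genes described), the source of chromosomes and promoter sequences.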

Additional observations from a re-analysis of the deposited data

How the results depend on the processing

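NFS1 stayed above 0.5 on the log2 scale in all 12 alternatives, which changed the pseudocount, count minimum, scaling, centring and the summary over guides. Its values ran from 0.72 (ratio of summed counts) to 1.63 (mean of the 3 farthest guides). The count minima removed no guide of the compared genes, so those settings could not change their values. Under other pseudocounts, scalings and centring NFS1 stayed at 1.09 to 1.10. Only the summaries over guides moved it further, in 4 of the 12. MMS19 ran from 0.23 to 0.45, HSCB from -0.09 to 0.01, CIAO1 from -0.11 to 0.02 and FAM96B from -0.07 to 0.10, none past the fold in these 12. Over 16 alternatives, the count of compared genes higher in top was 1 in all but a fold of 0.3, which gave 2 by adding MMS19, and the count higher in bottom was 0 in all 16. Over all gene starts the counts, 342 higher in top and 182 in bottom, became 861 and 564 at a fold of 0.3, 96 and 24 at a fold of 1.0, 188 and 90 without each start's farthest guide, and 754 and 476 with its 3 farthest guides. NDUFAB1 and ABCE1 passed the fold in 11 of 12 alternatives, with lowest values of 0.42 and 0.47, FECH in 11, weakest at -0.49, and ABCB10 in 9, with a lowest value of 0.34. PRIM2, POLD1, POLA1, DNA2 and NARFL passed it in all 12. Each ratio already pairs the top and bottom library of the same sublibrary. With 1 library per group there were no replicate pairs, and no library could be left out in turn. Single guides of low abundance spread widely: in H1 the guides with an abundance up to -1 had 5th and 95th percentiles of -0.63 and 0.74. The cause of that spread was not tested.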

Other observations

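Another 8 genes of cluster assembly lie in H4. The median abundance in H4 bottom was 0.21 for ISCA2, 0.07 for IBA57, 0.02 for NUBPL, -0.10 for FDX1L, -0.15 for BOLA3 and -0.30 for ISCA1. BOLA1, with 2 annotated starts, had 0.43 and -0.14. NUBP2, the partner of NUBP1 in the cytosolic scaffold, had a median of -0.32, and its lowest guide had 79 counts, an abundance of -4.09. Under the 5th percentile of the non-targeting guides lay 5.68% of all 12045 H4 guides with a target. BOLA3 and NUBP2 each had 1 guide under it, and the other 6 genes had 0. These values describe the dim quartile of 1 library and hold no comparison with bright cells.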
